A study of Homo sapiens with 6 samples.

Results

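The human miRNA entries numbered from miR-6715 to miR-6895, a late batch of annotated miRNAs that is rich in mirtrons, were followed in exosomes of H1299 cells. Members were all entries of the deposited count table whose number lies in that range, with both arms of a hairpin counted as separate entries. Every entry of that table had at least 1 count, and the members were chosen with earlier results of these data known. The rule itself used names alone and gave 229 of 1247 entries (18.4%), from 151 miRNA numbers. Of these, 126 were 5p arms, 101 were 3p arms, and miR-6745 and miR-6860 carried no arm in their names.

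H1299 is an established human non-small cell lung cancer line. The control group was H1299 cells with a stably expressed control short hairpin RNA (shRNA), and the other group was the same line with a stably expressed shRNA against WDR4, here called shWDR4. WDR4 does not catalyse itself, but holds METTL1, the subunit that methylates guanosine of RNA at position N7. All libraries were made from exosomes, small vesicles released into the medium, after 48 hours in medium freed of exosomes, and the series concerns how WDR4 bears on the miRNAs that exosomes carry. The labels name 3 libraries per group, and the deposited table joined them into 1 count column per group. The spread between libraries was therefore not known, no p-value was computed, and the 95% intervals below cover counting error only. Column totals were 1020282 counts for control and 552913 for shWDR4. WDR4's own transcript is not a miRNA and has no row in the table, which left the knockdown unchecked. Since no library was made from whole cells, a changed loading of exosomes and a changed level in the cells cannot be told apart.

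Most miRNAs are cut from their primary transcript by the enzyme Drosha and then by Dicer. A mirtron is a short intron that folds into a hairpin, so that splicing takes the place of Drosha at one or both ends. The 5′ end of a full mirtron starts with the GU of the 5′ splice site, and its 3′ end is the AG of the 3′ splice site. In a tailed mirtron only one end of the hairpin is made by splicing, and the rest of the intron is trimmed away. The arms are called 5p and 3p by their place in the hairpin, and the seed, bases 2 to 8, is the stretch that chiefly pairs with target messenger RNAs.

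Mature sequences from RefSeq (GRCh38.p14) could be matched for 202 of the 229 members. Those not matched, miR-6892-5p among them, are absent from the sequence searches below. The first set shows 3p arms on whose counts the results turn, all ending in AG, with the seed in capitals.
miR-6765-3p: uCACCUGGcuggcccgcccag
miR-6873-3p: uUCUCUCUgucuuucucucucag
miR-6836-3p: aUGCCUCCcccggccccgcag
miR-6892-3p: uCCCUCUCccaccccuugcag
miR-6813-3p: aACCUUGGccccucuccccag

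The next set shows 5p arms that differed between the groups, again with the seed in capitals. The first 3 begin with GU at the first base of an intron, and the last 2 do not.
miR-6834-5p: gUGAGGGAcugggauuugugg
miR-6858-5p: gUGAGGAGgggcuggcagggac
miR-6869-5p: gUGAGUAGuggcgcgcggcggc
miR-6780b-5p: uGGGGAAGgcuuggcagggaaga
miR-6881-5p: uGGGGUAAggauaggaggguca

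The hairpin of miR-6765 is shown whole because it is exactly 1 intron, with the mature arms in capitals. Its 5p arm starts with the GU of the 5′ splice site and its 3p arm ends with the AG of the 3′ splice site. The hairpin of miR-6873 stands beside it as one whose 3′ end alone lies at a splice site.
MIR6765: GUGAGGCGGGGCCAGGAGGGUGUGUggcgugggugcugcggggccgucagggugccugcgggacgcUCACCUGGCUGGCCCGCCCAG
MIR6873: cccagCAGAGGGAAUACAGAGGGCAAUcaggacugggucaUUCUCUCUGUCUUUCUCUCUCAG

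The positions of the hairpins were set against the introns of GENCODE release 29 (GRCh38), with an end counted at a splice site when it lay within 5 bases of it. The RefSeq table held 164 hairpins of the number range, of which 141 had an entry among the members and 23 had none. Of the 164, 145 (88.4%) had their 3′ end exactly on the last base of an intron, against 51 of 1396 other human hairpins (3.65%). Of the 141 with an entry, 130 did (92.2%). Within the 5 bases allowed, 120 of the 141 lay at the acceptor end of an intron alone, 10 filled an intron from end to end, 4 lay at the donor end alone and 7 lay at neither. The hairpins with an entry are thus mostly ones at the 3′ end of an intron, and few are full mirtrons. The 10 introns filled end to end were 74 to 117 bases long. Over all 164, the hairpins at the acceptor end alone started 9 to 9141 bases downstream of the donor, with a median of 284 bases.

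**Figure D1:**
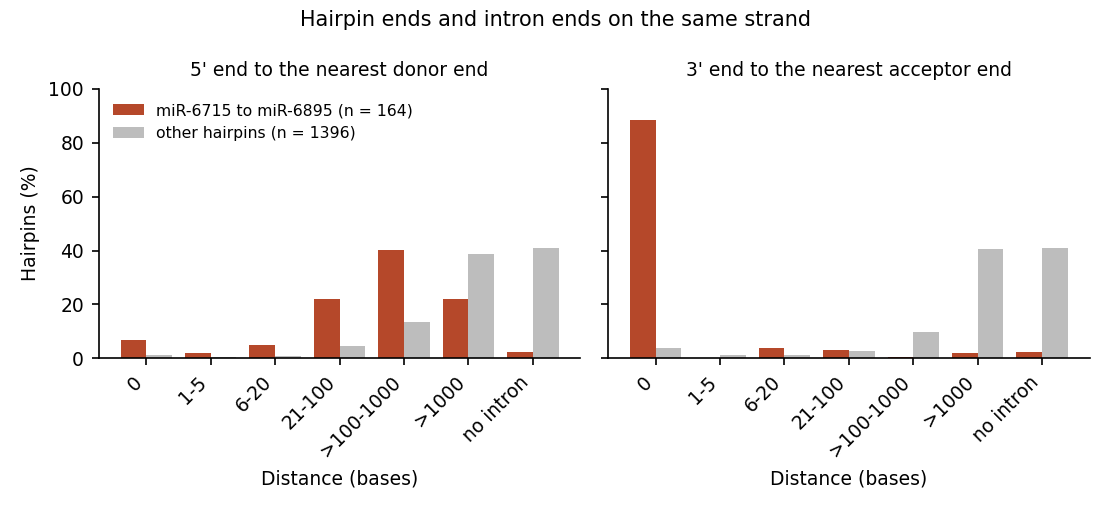
Share of hairpins (%, vertical axes) by the distance in bases from the hairpin's 5′ end to the nearest intron start and from its 3′ end to the nearest intron end (horizontal axes), for the 164 hairpins of miR-6715 to miR-6895 and for the other 1396 human hairpins. The 3′ end fell on the last base of an intron in 88.4% of the hairpins of this number range, with or without an entry in the count table, and in 3.65% of the others.

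The hosts of the members with most counts were protein-coding genes. MIR6765 is the whole intron of 87 bases at chr14:105150778-105150864 (minus strand) in JAG2, which encodes a ligand of Notch receptors. MIR6873 lies at chr6:33287227-33287289 (minus strand), at the 3′ end of an intron of 128 bases in WDR46. MIR6892 is the whole intron of 115 bases at chr7:143382686-143382800 (plus strand) in ZYX, which encodes the focal adhesion protein zyxin. MIR6834 is the whole intron of 81 bases at chr6:33290245-33290325 (plus strand) in PFDN6, a subunit of the prefoldin chaperone. MIR6836 lies at chr7:2257515-2257577 (minus strand), at the 3′ end of an intron of 220 bases in SNX8, a sorting nexin of endosomes.

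The third most abundant member, miR-6724-5p, lies beside ribosomal RNA genes. RefSeq places 4 copies of its hairpin on chromosome 21. In 3 of the 4 copies the hairpin ended 581 to 600 bases before the start of an annotated gene of the 45S ribosomal RNA precursor. Its mature sequence is shown because it lacks the AG end and is rich in G and C.
miR-6724-5p: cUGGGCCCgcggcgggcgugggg

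The batch as a whole took a larger share of the shWDR4 column than of the control column. Its members held 7599 control counts, or 0.745% of that column (exact 95% interval 0.728 to 0.762). They held 8014 shWDR4 counts, or 1.45% (1.42 to 1.48). Scaled to 1000000 counts per column (CPM), the summed level was 1.95-fold higher in shWDR4 (1.89 to 2.01). The value was 1.49 with upper-quartile scaling and 3.08 with totals that left out miR-3960, miR-6126 and miR-7704, large entries of the shWDR4 column that are not members. Other entries numbered from 1000 on, these large entries included, had a higher summed fold of 2.98 (2.96 to 2.99). Among them, miR-4632 to miR-4804 had 20.0 (19.2 to 20.8). Entries below 1000 with let-7 had 0.492. A larger share in shWDR4 was thus not particular to the members.

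A few members carried most of these counts. The JAG2 mirtron arm miR-6765-3p alone held 42.5% of the members' control counts and 24.0% of their shWDR4 counts. With miR-6873-3p and miR-6724-5p added, the share was 68.2% in control and 54.1% in shWDR4. Without those 3, chosen by their mean level after it was seen, the summed fold of the remaining 226 members was 2.81 (2.67 to 2.96). These 226 members had 2414 control and 3679 shWDR4 counts. Among them were miR-6892-5p, with 8 and 550 counts, and miR-6836-3p, with 21 and 445, so this fold too leans on few entries. At the other end, 71 members had at most 4 counts over both columns, 131 had 5 to 49, and 27 (11.8%) had at least 50. Among the other 1018 entries 31.6% had at least 50 counts.

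More members were seen in the shWDR4 column, although it was the shallower one. At least 1 count was found for 148 members in control (64.6%) and for 199 in shWDR4 (86.9%). Every entry of the deposited table had a count in at least 1 column. These percentages are therefore of entries seen somewhere, not of all annotated miRNAs in the range. A member missing from one column was by this rule seen in the other alone. At the depth of the shWDR4 column, 137 members would be expected in control. Both columns detected 118 members, the control column alone 30 (13.1%, against 14.9% of all entries) and the shWDR4 column alone 81 (35.4%, against 27.3% of all entries). Detection in shWDR4 alone was the case for 16.9% of the entries numbered below 1000 with let-7, and for 32.7% of the other entries numbered from 1000 on. The members thus stood near other high-numbered entries and apart from the low-numbered ones. These were mostly low counts, since 36 of the 81 had at most 3 counts and the highest had 34. With at least 5 counts required, 97 members were detected in control and 117 in shWDR4, while over all entries 730 and 650 were.

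**Figure D2:**
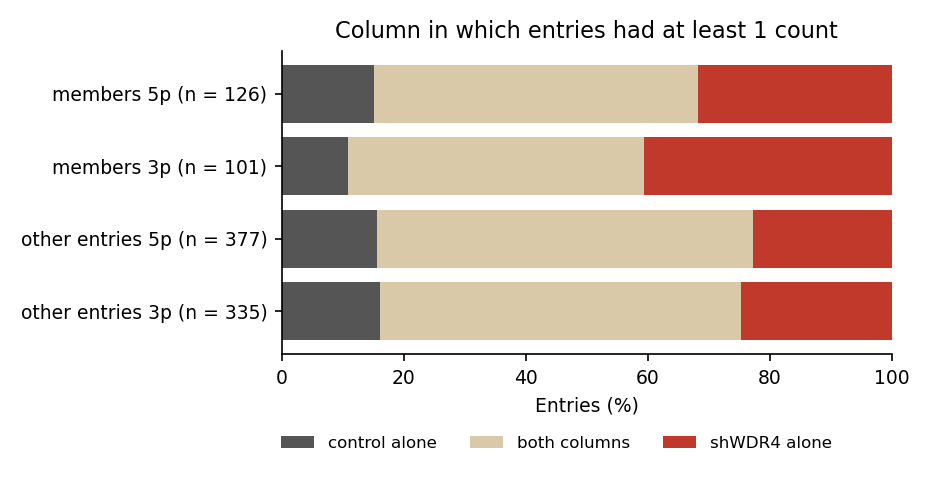
Share of entries (%, horizontal axis) with at least 1 count in both columns, in control alone, in shWDR4 alone, for the 5p and 3p arms of the members and of the other entries. The members' 5p arms were found in shWDR4 alone in 31.7% of cases, and their 3p arms in 40.6%.

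The 2 arms differed in detection and in amount. The 5p arms went from 86 detected in control to 107 of 126 in shWDR4 (68.3% to 84.9%), and 40 (31.7%) were seen in shWDR4 alone. The other 5p entries went from 77.2% to 84.4%, with 22.8% in shWDR4 alone. The 3p arms went from 60 to 90 of 101 (59.4% to 89.1%), and 41 (40.6%) were seen in shWDR4 alone. The other 3p entries went from 75.2% to 83.9%, with 24.8% in shWDR4 alone. Both arms were thus less often detected in control than the entries of the same arm outside the range, and about as often or more often in shWDR4. In summed counts the 3p arms led in both columns, with 5210 control and 4788 shWDR4 counts, a fold of 1.70 (1.63 to 1.76). The 5p arms had 2382 control and 3219 shWDR4 counts, a fold of 2.49 (2.36 to 2.63). Both the lead of the 3p arms in counts and their lower fold rested on 2 entries, chosen by their level. Without miR-6765-3p and miR-6873-3p the 3p arms had 659 and 1138 counts, a fold of 3.19 (2.89 to 3.51). That value includes miR-6836-3p, with 21 and 445 counts. No 5p arm was left out in turn, and the 5p fold includes miR-6892-5p, with 8 and 550 counts. The order of the arms thus depends on which entries are left out.

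The levels of single members were compared for the 27 with at least 50 counts over both columns. Of these, 13 were at least 2-fold higher in shWDR4 (48.1%, against 26.1% of the 349 entries of all kinds with that many counts). Only miR-6881-5p and miR-6813-3p were at least 2-fold lower (7.41%, against 31.5%), and the remaining 12 differed by less. Their median log2 fold was 1.00 over the 27, against -0.37 over the 349. With a minimum of 20 counts, 33 of 58 members were at least 2-fold higher, against 30.1% of all such entries, and 6 were at least 2-fold lower, against 30.7%. Other entries numbered from 1000 on gave nearly the same share, with 53 of 110 at least 2-fold higher (48.2%) and a median log2 fold of 0.87. Entries below 1000 with let-7 gave 25 of 212 (11.8%) and a median of -0.84. A share of higher entries above the background was thus seen in both sets of high-numbered entries, and the difference between them was not tested.

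**Figure D3:**
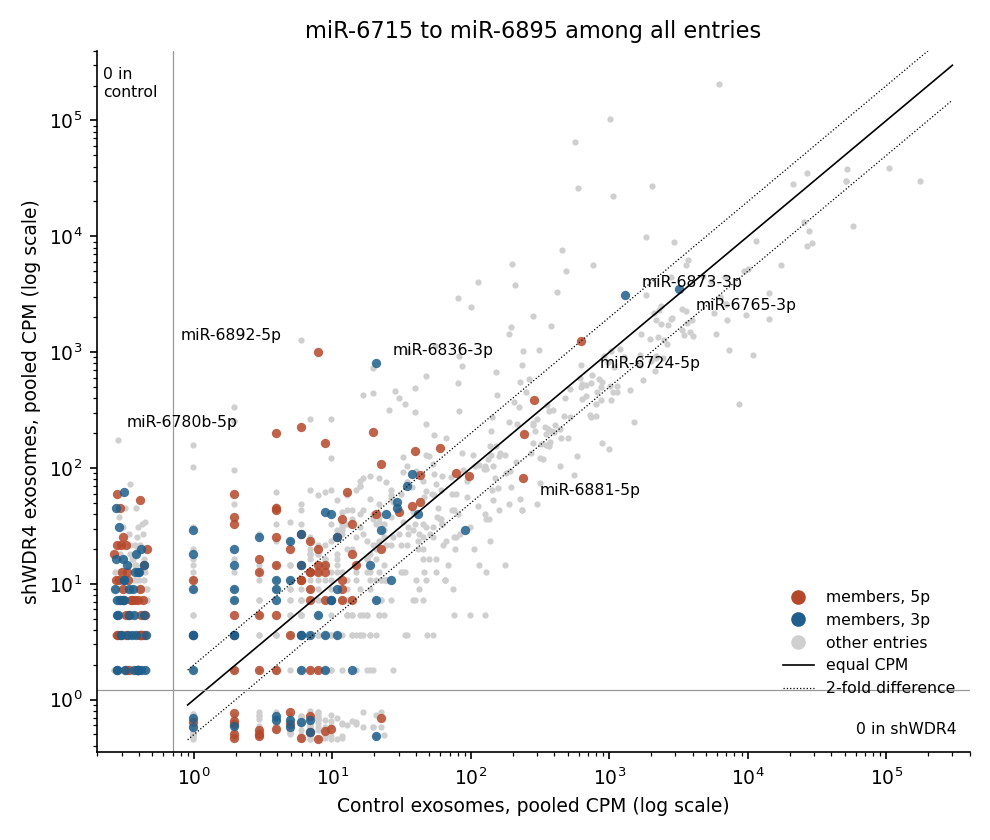
Level of each entry in control (horizontal) and shWDR4 exosomes (vertical), as pooled CPM on log axes, with members coloured by arm, other entries in grey, a solid line at equal CPM and dotted lines at a 2-fold difference. Among members with at least 50 counts, 13 lay above the upper dotted line and 2 below the lower one.

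The most abundant member hardly differed. The JAG2 arm miR-6765-3p had 3229 counts in control (3165 CPM) and 1925 in shWDR4 (3482 CPM), and ranked 44th and 37th among all entries. Its fold was 1.10 (1.04 to 1.16), and with upper-quartile scaling it was 0.845. The WDR46 arm miR-6873-3p had 1322 counts in control (1296 CPM) and 1725 in shWDR4 (3120 CPM), a 2.41-fold higher level (2.24 to 2.59). For miR-6724-5p, next to the ribosomal RNA genes, 634 and 685 counts gave 621 and 1239 CPM, a fold of 1.99 (1.79 to 2.22). These 3 members were high in both columns, and reads of the repeated ribosomal region could have more than 1 source, since the treatment of reads with several matches is not given in the sources used here.

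Several members had few counts in control and a sizeable level in shWDR4. The floor, set where a column has 0, is 3 counts over a group, 2.94 CPM in control and 5.43 CPM in shWDR4. The ZYX mirtron arm miR-6892-5p had 8 counts in control (7.84 CPM) and 550 in shWDR4 (995 CPM), a 127-fold higher level (63.9 to 295). It ranked 551st of all entries in control and 87th in shWDR4. The SNX8 arm miR-6836-3p had 21 and 445 counts (20.6 and 805 CPM), a 39.1-fold higher level (25.3 to 63.8). Both were low in control and among the 100 highest entries of shWDR4.

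Further large folds came from 5p arms with under 10 control counts. The ABCC10 arm miR-6780b-5p, from an intron of a gene for a drug efflux transporter, had 4 counts in control and 110 in shWDR4, a fold of 50.7 (19.3 to 190). The PFDN6 mirtron arm miR-6834-5p had 6 and 124 counts, a fold of 38.1 (17.0 to 106). For miR-6858-5p, at the donor end of an intron of FAM50A, 9 and 91 counts gave a fold of 18.7 (9.41 to 42.1). The wide intervals reflect the few control counts, and each lower bound lay above 9-fold. In miR-6869-5p, at the donor end of an intron annotated over FKBP1A, the gene of an FK506-binding protein, 20 and 114 counts gave a fold of 10.5 (6.50 to 17.9).

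Fewer members were lower in shWDR4. The 5p arm miR-6881-5p, from the 3′ end of an intron of the semaphorin gene SEMA7A, had 241 counts in control (236 CPM) and 45 in shWDR4 (81.4 CPM), a 2.90-fold lower level (2.10 to 4.08). The arm miR-6813-3p had 93 and 16 counts (91.2 and 28.9 CPM), a 3.15-fold lower level (1.84 to 5.74). The other 3 members with a fold below 1 had intervals that held 1. For miR-6743-5p the 247 and 108 counts gave a fold of 0.807 (0.638 to 1.02). The 98 and 47 counts of miR-6821-5p gave 0.885 (0.611 to 1.27), and the 42 and 22 counts of miR-6729-3p gave 0.967 (0.550 to 1.66). For these 3 a difference was not detectable at this depth. Both members past 2-fold stayed below 1 with each of the 6 other scalings, though neither remained 2-fold lower with totals that left out the 3 large entries.

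Of the 22 members above 1, 16 had an interval that excluded 1 and 18 stayed above 1 with all 6 other scalings. The arm miR-6803-5p had 40 and 77 counts, 3.55-fold higher (2.39 to 5.34), and miR-6797-5p, from a ribosomal protein gene (RPS19), had 23 and 60 counts, 4.81-fold higher (2.93 to 8.16). The direction of 7 members in all turned with at least 1 of those scalings, among them miR-6765-3p.

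**Figure D4:**
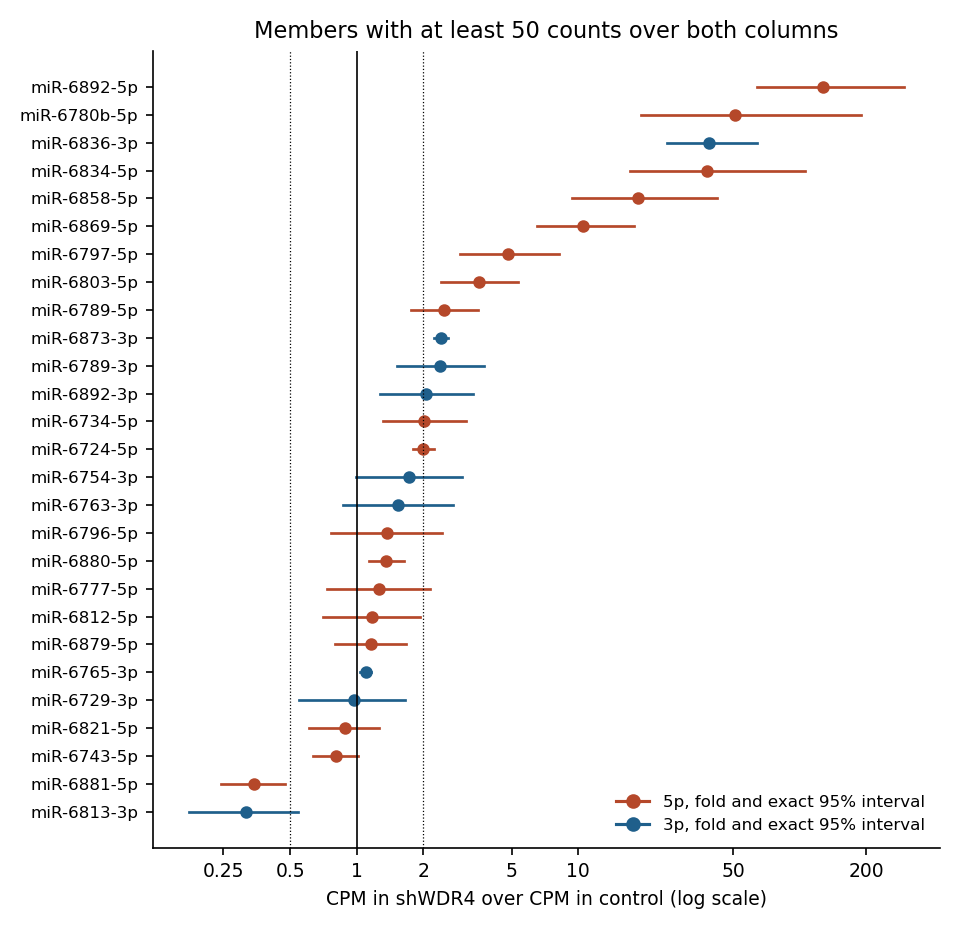
Fold of CPM, shWDR4 over control (horizontal, log axis), with its exact 95% interval for the 27 members with at least 50 counts, coloured by arm. The points run from 0.317 for miR-6813-3p to 127 for miR-6892-5p, with 22 of the 27 above 1.

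Among members with 0 counts in one column and at least 20 in the other, 5 were found in shWDR4 alone and 2 in control alone. In shWDR4 alone, miR-6825-3p had 34 counts (61.5 CPM), at least 20.9-fold higher, and miR-6727-5p had 33 (59.7 CPM), at least 20.3-fold higher. The others were miR-6790-5p with 29 counts, at least 17.8-fold higher, and miR-6740-5p and miR-6820-3p with 25 counts each, at least 15.4-fold higher. In control alone, miR-6867-5p had 23 counts (22.5 CPM), at least 4.15-fold lower in shWDR4, and miR-6741-3p had 21 (20.6 CPM), at least 3.79-fold lower. These bounds set the empty column at the floor of 3 counts over the group. The bounds downward are smaller because the floor of the shallower column is higher.

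In the authors' deposited table, which marks entries with a Storey q-value and a 2-fold difference, 54 members were marked higher in shWDR4 (23.6%, against 15.4% of all entries). The same mark was on 18.7% of the other entries numbered from 1000 on and 7.38% of those below 1000 with let-7. It was on 29.7% of the entries outside the range whose hairpin has an end at a splice site. The authors' deposited table marked 4 members lower, against 10.8% of all entries. Of these 58 members, 43 fell short of the minimum of 50 counts, and the authors' deposited table gave no fold for 62 members. The q-values of the authors' deposited table rest on 2 pooled columns and hold no spread between libraries.

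Within a hairpin the ratio of the arms does not depend on the column total, so it was compared without scaling. Both arms were among the entries for 76 names, and 20 of these had at least 50 counts over both arms and columns. The more abundant arm differed between the columns in 5 of the 20 (25%, against 16.7% of the 150 such pairs of all kinds). The intervals of the 5p share did not overlap in 7 of the 20 (35%, against 28.7%). In 6 of the 7 the 5p share was higher in shWDR4, and in miR-6880 it was lower. Among the other 130 pairs, 19 had a higher and 17 a lower 5p share.

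The change of arm with most counts behind it was that of miR-6892. Its 5p arm made up 18.6% of 43 control counts (8.39 to 33.4) and 93.4% of 589 shWDR4 counts (91.1 to 95.3). The 3p arm differed far less than the 5p arm did, from 35 to 39 counts, 2.06-fold higher (1.27 to 3.34) after scaling. In miR-6727, from an intron of INTS11, the catalytic subunit of the Integrator complex, the 5p arm had 0 of 21 control counts, which allows a share of up to 16.1%, and 33 of 37 shWDR4 counts, or 89.2% (74.6 to 97.0). Its arms are shown because the more abundant one changed from 3p to 5p.
miR-6727-5p: cUCGGGGCaggcggcugggagcg
miR-6727-3p: uCCUGCCAccuccuccgcag

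In miR-6780b the 5p arm held 4 of 10 control counts, 40.0% (12.2 to 73.8), and 110 of 111 shWDR4 counts, 99.1% (95.1 to 99.98). For miR-6813, 3p led in both columns, and the 5p share went from 4.12% of 97 counts (1.13 to 10.2) to 33.3% of 24 (15.6 to 55.3). For miR-6754 it went from 0 of 30 counts to 28.2% of 39 (15.0 to 44.9). In miR-6886 the more abundant arm changed the other way, with a 5p share of 54.5% (32.2 to 75.6) in control and 21.4% (8.30 to 41.0) in shWDR4, intervals that overlap. The share differed by under 5 percentage points in the next 3 hairpins. The 3p arm of miR-6765 held nearly all counts, with a 5p share of 0.185% of 3235 in control (0.0681 to 0.403) and 0.773% of 1940 in shWDR4 (0.433 to 1.27). In miR-6880 the 5p share was 99.7% (98.1 to 99.99) and 95.6% (92.0 to 97.8). In miR-6789, from an intron of PLEKHJ1, the 5p share was 61.6% (51.3 to 71.2) and 62.6% (53.7 to 70.9), and both arms were higher in shWDR4, 5p by 2.48-fold (1.76 to 3.51) and 3p by 2.38-fold (1.53 to 3.74). With a minimum of 20 counts, 42 hairpins were compared, and the intervals lay apart with a higher 5p share in shWDR4 in 9 and a lower one in 4. The lower ones were miR-6880, miR-6820, miR-6775 and miR-6867. In miR-6820 the 5p arm had 14 and 4 counts and the 3p arm 0 and 25.

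**Figure D5:**
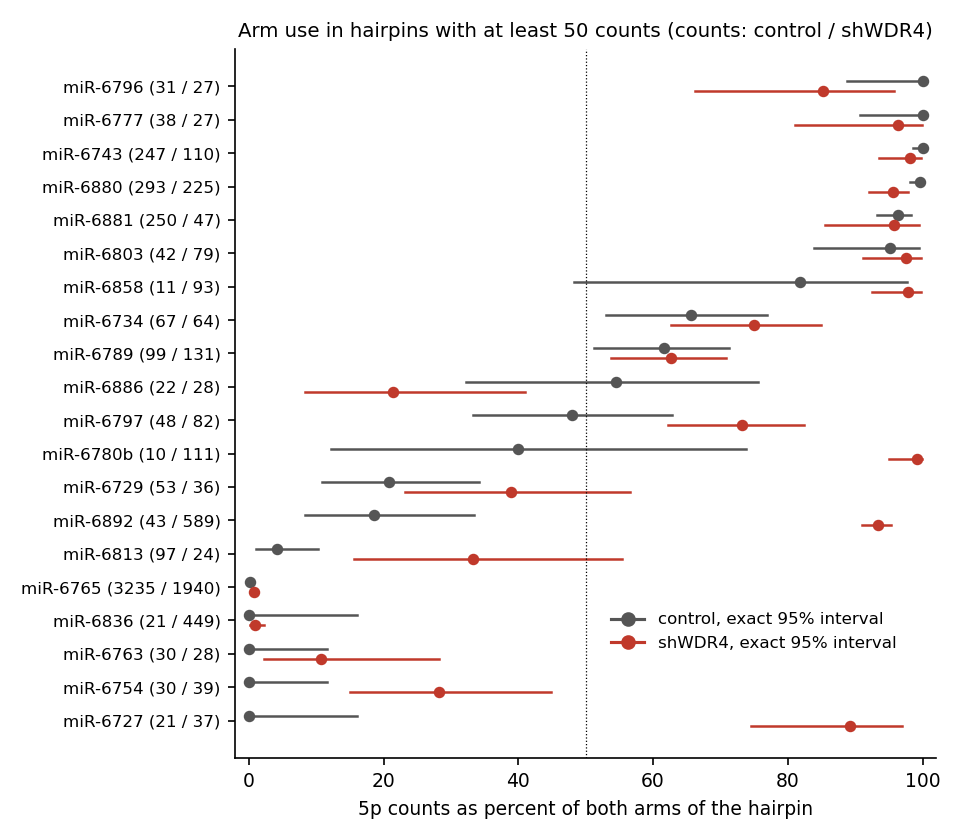
Share of 5p counts in both arms (%, horizontal axis) with its exact 95% interval in control (grey) and shWDR4 (red), for the 20 hairpins with at least 50 counts, with the counts printed beside the names. In miR-6892 the share is 18.6% in control and 93.4% in shWDR4, while in miR-6789 the values are 61.6% and 62.6%.

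The amounts were also summed by the geometry of the hairpins. Entries from hairpins at the acceptor end alone, 173 members, had 3180 control and 3963 shWDR4 counts, a fold of 2.30 (2.19 to 2.41). The 16 entries from full mirtrons had 3524 and 2936 counts, a fold of 1.54 (1.46 to 1.62), with miR-6765-3p holding most of them. Among the full mirtrons 5 of the 7 entries with at least 50 counts were at least 2-fold higher (71.4%), and among those at the acceptor end alone 6 of 16 were (37.5%), against 26.1% of all entries. The 5 were both arms of miR-6892, both arms of miR-6789 and miR-6834-5p, so they come from fewer hairpins than entries. The 6 entries from hairpins at the donor end alone had 38 and 249 counts, a fold of 12.1 (8.57 to 17.5), which came mostly from miR-6869-5p and miR-6858-5p. The 7 entries from hairpins at neither end had 654 and 737 counts, a fold of 2.08 (1.87 to 2.31), mostly from miR-6724-5p. The 27 members whose hairpin could not be placed had 203 and 129 counts, a fold of 1.17 with an interval that held 1 (0.933 to 1.47). With 1 column per group these sums describe the columns and were not tested against each other.

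The sequences of the arms mirrored each other. The 108 matched 5p members had a median of 50% G, against 31.8% in the other 330 matched 5p entries. The 92 matched 3p members had a median of 47.6% C and 13.6% G, against 27.3% C and 23.8% G in the other 305. The 3p members ended in AG in 70 of 92 cases (76.1%), 60 of them as CAG and 10 as UAG, against 13.4% of the other 3p entries. The 5p members began with GU in 12 of 108 cases (11.1%), against 5.15%. Human introns commonly end in a stretch of pyrimidines followed by CAG or UAG.

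The motif GGAG, which has been described in miRNAs sorted into exosomes, was searched as these 4 letters in the mature strand. It was found in 56 of the 108 5p members (51.9%) and in 0 of the 92 3p members, against 22.1% of all matched entries. Among members with at least 50 counts, the 8 with GGAG had a median log2 fold of 0.45, with 3 at least 2-fold higher and 1 lower. The 16 without it had a median of 1.15, with 9 higher and 1 lower. Outside the range the order was the opposite, with a median of -0.18 over the 54 entries with GGAG and -0.59 over the 233 without. At least 2-fold higher were 17 of the 54 and 53 of the 233. A match is a description of the letters only.

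Of the 15 matched 5p members with at least 50 counts, 4 begin with GU, and these were at least 2-fold higher in shWDR4, namely miR-6834-5p, miR-6858-5p, miR-6869-5p and miR-6789-5p. The mature sequences of miR-6892-5p, with a fold of 127, and miR-6821-5p, with a fold of 0.885, were not matched. The hairpin of miR-6892 starts at the first base of an intron of ZYX. That of miR-6821 begins with GU at the first base of an intron of PIM3. This feature was looked at after the folds were seen. Outside the range, 5 of 7 such 5p entries were at least 2-fold higher and 2 were lower. Of the 3p members ending in AG, 4 of 8 were at least 2-fold higher and 1 lower, and of the 9 such entries outside the range 0 were higher and 3 lower. Over the 24 matched members with at least 50 counts, GC content and log2 fold had a Spearman's rho of 0.08, and over the 311 matched entries of all kinds rho was 0.56. All points share the same 2 columns, and no test was made of either value.

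Among the 202 matched members, 0 shared a run of 16 bases with another of the 1115 matched entries, and 192 different seeds were found. A seed shared with an entry outside the range was found for 31 members, among them miR-6816-5p with miR-3180 and miR-3196. The seed UGGGGGU was common to miR-6751-5p and miR-6803-5p, 1 of 10 pairs of members with the same seed. An exact copy of the mature sequence was also found in annotated spliced or intron-retaining transcripts of the host for miR-6836-3p (SNX8), miR-6834-5p (PFDN6), miR-6869-5p (FKBP1A), both arms of miR-6789 (PLEKHJ1) and both arms of miR-6727 (INTS11). Whether reads of those transcripts entered the counts was not tested.

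The early-described human mirtrons, which lie outside the range, differed in direction among themselves. The list held miR-877, miR-1224 to miR-1227, miR-1229 and miR-1236 to miR-1238, of which 14 entries were present. Of the 3 with at least 50 counts, miR-1229-5p was higher in shWDR4, at 48 and 133 counts, by 5.11-fold (3.65 to 7.27). The largest, miR-877-5p, was lower, with 1795 and 318 counts, a 3.06-fold lower level (2.71 to 3.46), and miR-877-3p had 88 and 74 counts, a fold of 1.55 (1.12 to 2.14). The 91 entries outside the range whose hairpin has an end at a splice site had a summed fold of 0.987 (0.928 to 1.05), and without miR-877-5p, left out after its counts were seen, it was 2.03 (1.87 to 2.20). Of the 15 among them with at least 50 counts, 6 were at least 2-fold higher and 2 lower, with a median log2 fold of 0.88 against 1.00 for the members.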

How the data were processed

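The authors deposited 1 pooled column of whole-number read counts per group, without normalization, per the file headers. The submitters' processing notes name Bowtie, SAMtools, FastQC, Trim Galore and edgeR, without roles or versions. Not given in the sources used here are the build, the miRNA annotation, the handling of reads with several matches and that of molecular identifiers. The marks come from the authors' deposited table, where an entry was marked by both its log2 fold, given as control over shWDR4, and its q-value. All other folds and log2 folds were computed here from CPM. Counts were divided by the column total and multiplied by 1000000 (CPM). Folds are shWDR4 over control with exact conditional 95% intervals, shares with exact Clopper-Pearson intervals. They cover counting error only. A 0 was set to 3 counts, single folds were compared from 50 counts over both columns on, and 2-fold was the size rule. The planned edgeR test per library was not run, because only pooled columns were used.

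Named members were the 10 with the highest mean CPM, the 5 largest folds each way among those with at least 50 counts, both arms of hairpins with at least 50 counts in each arm, and members with 0 against at least 20 counts. Others were named after their values were seen. The fold of 1 such member is not reported here. The members and lists were chosen with earlier results of these data known. Hairpins came from RefSeq (GRCh38.p14) and introns from GENCODE release 29. The scripts were tested on simulated data. Python 3.11.15, SciPy 1.17.1 and edgeR 4.0.16 (scale factors only) were used.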

Additional observations from a re-analysis of the deposited data

How the results depend on the processing

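No paired analysis was possible because each group has 1 pooled column, and for the same reason no single library could be left out. The summed fold of 1.95 was 2.17 with trimmed mean of M values, 2.10 with median of ratios, 1.49 with upper quartile, 2.43 with totals without miR-3960, 3.08 without miR-3960, miR-6126 and miR-7704, 2.57 without miR-6765-3p and 2.81 without the 3 highest members (added after seeing the data). These scalings shift every log2 fold by 0.16, 0.11, -0.38, 0.32 and 0.66, and the split over all 349 entries went from 91 higher and 110 lower to 76 and 151 (upper quartile) and to 117 and 49 (without the 3 entries). Members at least 2-fold higher numbered 8 with upper quartile, and 33, 3 and 108 with a minimum of 20, 200 and 1 counts. Of the 108, 9 had at most 2 counts, in control alone, and are higher only through the floor of 3 counts set for a 0 (6 of the 60 5p and 3 of the 47 3p arms given next). Members lower numbered 0 without the 3 entries, and 6, 1 and 14 with those minimums. For 5p arms the higher counts were 23, 1 and 60 with those minimums, and the lower ones 2 and 5 with a minimum of 20 and 1, and 0 without the 3 entries. For 3p arms the higher counts were 10, 2 and 47, and 1 with upper quartile, and the lower ones 4, 0 and 9, and 0 without the 3 entries. With at least 5 counts, 97 and 117 members were detected. Among early-described mirtrons the higher numbered 2 without the 3 entries and 4, 0 and 5 with those minimums, and the lower 0 without the 3 entries, 2 with a minimum of 20 and 2 with 1. Their median log2 fold of 0.63 became -1.61 at 200 counts, where 1 entry remains. Arm pairs with a changed major arm numbered 15 at 20 counts and 1 at 200, those with a higher 5p share 2 at 200, and those with a lower one 4 at 20. With ends within 2 or 10 bases, 7 or 12 hairpins were full mirtrons.

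The depth limits 202 of the 229 members, which had under 50 counts. Whether single libraries carried a large fold was not tested, nor was the cause of the shifts between settings.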
